A study of Mus musculus with 6 samples.

Results

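The naive-state regulators and markers of mouse embryonic stem cells described here were 9 genes: the transcription regulators Esrrb, Nr5a2, Nr0b1, Tfcp2l1, Tbx3 and Prdm14, and the stem cell markers Tcl1, Fbxo15 and Jam2. They were taken as every probe set of the array whose only gene symbol in the platform annotation was 1 of these 9. That matching used no measured value, but the 9 genes and the context lists were chosen with earlier results of these data known. Their comparison with all genes is therefore a description and not an independent test. This gave 24 probe sets among the 34945 that carry a single symbol, or 9 of 18193 genes. Expression was measured in the embryonic stem cell line J1, from mouse and labelled wild type, in 3 groups of 2 arrays. The first group carried the short hairpin RNA shJmjd1c#3 (sh3), the next shJmjd1c#4 (sh4), both directed at Jmjd1c, a gene of the JmjC histone demethylase family, and the control group carried shNT in place of a hairpin against Jmjd1c. All 3 hairpins were delivered with pLKO.1 lentivirus, so the controls were also infected and drug-selected: puromycin at 1.5 ug/ml for 2 days, begun 1 day after infection, was followed by 4 days of culture after replating. All cells were kept on gelatin in 15% serum with 1000 U/ml leukemia inhibitory factor (LIF), and the label calls the 2 samples of each group biological replicates.

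The naive state is the ground condition of mouse embryonic stem cells, which resembles the preimplantation epiblast. LIF holds cells in it through STAT3, and inhibition of the kinase GSK3 holds them in it by relieving Tcf7l1-mediated repression; Tfcp2l1 is a known target of the first route and Esrrb of the second. Esrrb, Nr5a2, Tfcp2l1, Tbx3 and Prdm14 reinforce one another and the core factors Oct4, Sox2 and Nanog, and their transcripts are lost early when cells move to the formative state that precedes lineage commitment.

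On GRCm38.p6, Prdm14, Tfcp2l1 and Nr5a2 lie on chromosome 1 (Prdm14 at chr1:13113428-13127163, Tfcp2l1 at chr1:118627923-118685168, Nr5a2 at chr1:136842562-136960448). Esrrb (chr12:86361117-86521628) and Tcl1 (chr12:105216753-105222737) lie on chromosome 12. Tbx3 is at chr5:119670534-119684724, Jam2 at chr16:84774123-84826380 and Nr0b1 at chrX:86191775-86195947. RefSeq start-site windows of 300 bases, from 250 before to 50 after an annotated start, were matched by symbol for 5 of the 9 genes, 7 windows in all. The windows below are those of a nuclear receptor, of the factor with the largest difference among the regulators and of the marker with the largest difference, and are shown so that the motif search can be read against the letters searched; capitals mark the only motif match found in the 7 windows. They are, 5′ to 3′, the upstream Esrrb start at chr12:86360867-86361166 on the plus strand, Tfcp2l1 at chr1:118627695-118627994 on the plus strand and Tcl1 at chr12:105222688-105222987 on the minus strand.
Esrrb: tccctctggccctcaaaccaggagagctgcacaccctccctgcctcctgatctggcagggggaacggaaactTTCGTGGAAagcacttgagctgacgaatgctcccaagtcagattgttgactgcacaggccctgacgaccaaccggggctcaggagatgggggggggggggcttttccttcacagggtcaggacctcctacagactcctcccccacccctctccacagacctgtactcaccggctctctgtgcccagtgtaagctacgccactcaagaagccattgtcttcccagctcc
Tfcp2l1: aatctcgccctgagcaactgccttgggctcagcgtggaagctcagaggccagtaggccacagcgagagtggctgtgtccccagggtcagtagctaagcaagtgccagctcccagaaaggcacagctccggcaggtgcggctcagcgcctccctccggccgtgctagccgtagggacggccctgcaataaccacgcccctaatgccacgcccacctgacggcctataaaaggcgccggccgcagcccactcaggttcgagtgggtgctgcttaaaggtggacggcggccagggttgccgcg
Tcl1: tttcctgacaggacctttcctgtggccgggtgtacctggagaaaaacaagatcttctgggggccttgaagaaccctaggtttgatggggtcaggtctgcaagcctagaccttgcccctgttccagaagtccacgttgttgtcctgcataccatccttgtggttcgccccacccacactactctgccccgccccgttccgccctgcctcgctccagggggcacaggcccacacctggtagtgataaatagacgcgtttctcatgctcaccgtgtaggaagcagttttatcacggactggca

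Motifs were searched on both strands in all 7 windows and in the 32851 windows of the same length in the RefSeq table. The extended nuclear receptor site TCAAGGTCA, bound by Esrrb and Nr5a2 proteins, was in none of the 7 windows and in 0.423% of all windows, and its core AAGGTCA, which every TCAAGGTCA contains, was in none of the 7 and in 4.72% of all. The Tcf/Lef pattern CTTTGAT was in none of the 7 and in 3.73% of all, and the octamer ATGCAAAT was in none of the 7 and in 1.74% of all. The STAT pattern TTCNNNGAA, which reads the same on both strands, was in 1 of the 7, as TTCGTGGAA beginning 178 bases before the Esrrb start, and in 8.3% of all windows. A match is a string of letters and not a measured binding site, and a window without one says nothing of the factor.

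The median signal and the share of bright probe sets were close between groups, while the bacterial controls and 18S ribosomal RNA were not. The highest bacterial control probe set read 16.9 to 27.8 on the knockdown arrays and 5.62 to 8.90 on the shNT arrays. The part of that gap in the values of genes dim in shNT cells, among them Fgf5, Col3a1, Dcn and Cdx2, was not tested. The median signal was 72.0 to 81.3 on the arrays of the knockdown cells and 69.3 to 73.8 on those of shNT cells, and the share of probe sets above a signal of 100 was 44.6% to 46.3% in the knockdown cells and 44.0% to 44.9% in shNT cells. Signal at the 3′ end of Actb over that at its 5′ end, which rises as RNA degrades, was 2.26 to 2.40 in sh3, 2.80 to 2.81 in sh4 and 2.70 to 2.77 in shNT. The 3′ probe set of 18S ribosomal RNA read 3712 to 6177 in the knockdown cells and 6875 to 8140 in shNT cells, and its part in the results was not tested. The brightest Jmjd1c probe set, 1426900_at, read 4541 and 4984 in sh3, 3274 and 4215 in sh4 and 6060 and 5516 in shNT, so all 4 knockdown arrays were lower, at 73.5% of the shNT mean (log2 difference -0.46, SE 0.13, limma adjusted p = 0.358, or 0.0745 with the block described below). The 2 other Jmjd1c probe sets were higher in the knockdown cells (1448049_at by 0.90 on the log2 scale, limma adjusted p = 0.117, and 0.0127 with the block, and 1439998_at by 0.73, adjusted p = 0.439), so a fall of Jmjd1c was not established by these arrays. Each group is named by its hairpin, and knockdown is used throughout only as a label for the 4 arrays of cells with a Jmjd1c hairpin. The markers of embryonic stem cells were bright on every array, with a summed signal of 8 genes of 62039 to 63902 in the knockdown cells and 65772 to 75650 in shNT cells.

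All 9 genes had a lower mean signal in the cells with a Jmjd1c hairpin than in shNT cells. The log2 difference between the mean of both hairpins and shNT (the knockdown mean, on log2(signal + 16)) ranged from -1.21 for Tcl1 to -0.18 for Tbx3, with a median of -0.71, against a median of 0.01 over all 12684 genes tested. Of all genes tested, 48.33% had a negative difference. None of the 9 passed limma's test at an adjusted p under 0.05 over all genes tested, where 0.166% of all genes were called lower, and 6 of the 9 had an unadjusted p under 0.05, as did 1559 of the 12684 genes. Same-numbered arrays of the 3 groups deviated together from their group means, and with the replicate number fitted as a block 7 of the 9 fell, where 2.26% of all genes were called lower. The 7 were Esrrb, Nr5a2, Nr0b1, Tfcp2l1, Tcl1, Fbxo15 and Jam2; Tbx3 and Prdm14 did not pass. The block was inferred from these same arrays, since no label states what the replicates shared, so the count rests on that pairing. In 5 of the 9 genes all 4 knockdown arrays lay below both controls, as they did in 9.54% of all genes. As these are bulk samples, fewer cells of the naive kind and less RNA per cell cannot be told apart.

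**Figure D1:**
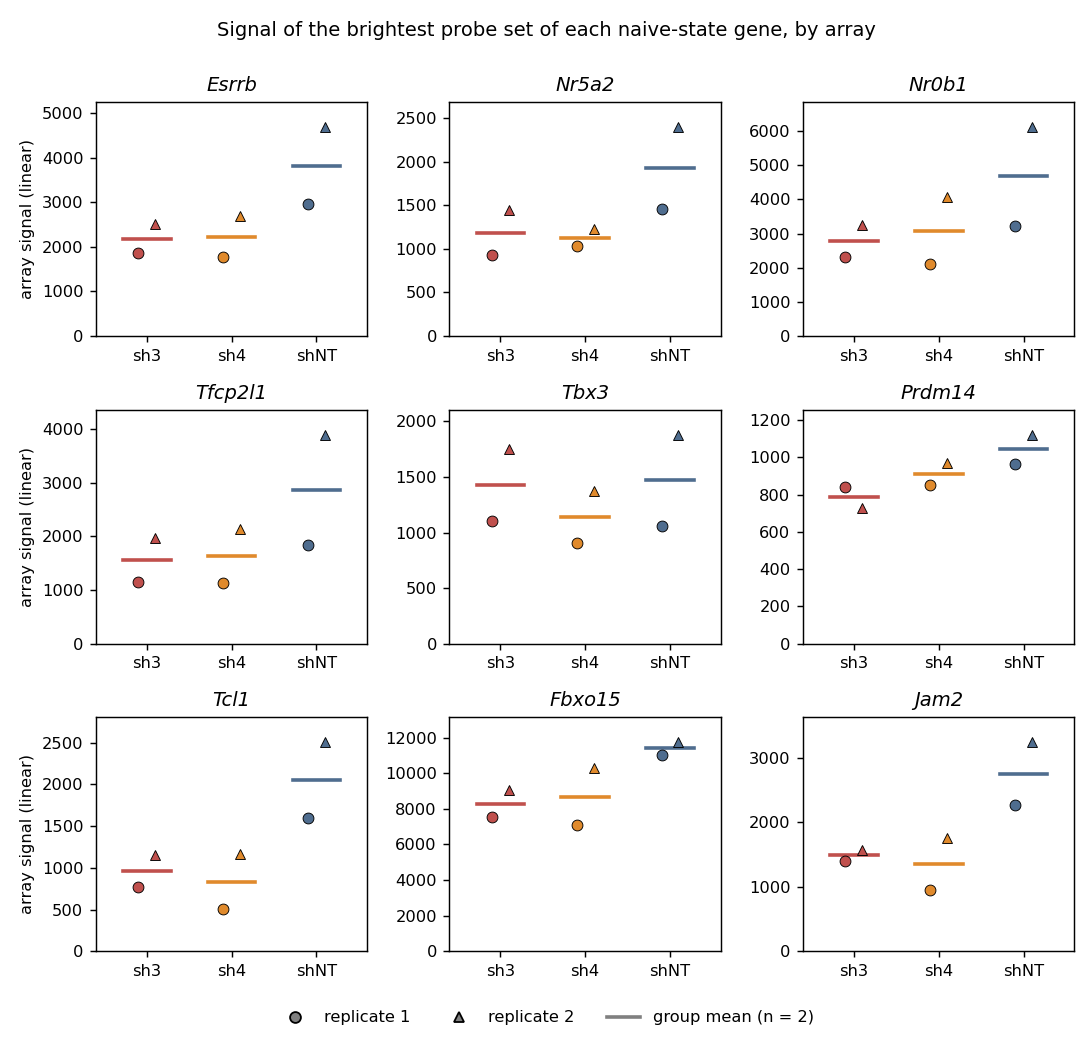
Array signal (linear scale, axis from 0) of the brightest probe set of each of the 9 genes in sh3, sh4 and shNT cells; circles are replicate 1, triangles replicate 2 and bars the group means (n = 2). All 4 knockdown arrays lie below both controls for Esrrb, Nr5a2, Tcl1, Fbxo15 and Jam2, and the replicate 2 array is the higher of its pair in all but 1 of the gene and group pairs.

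Among the nuclear receptors, Esrrb, an orphan receptor that can bind DNA as a monomer at the extended site TCAAGGTCA, had a signal of 1855 and 2515 in sh3, 1775 and 2687 in sh4, and 2958 and 4691 in shNT. Its 4 knockdown arrays lay below both controls, and the knockdown mean of 2208 ± 460 was 57.7% of the shNT mean of 3824 ± 1226 (SD, n = 4 and 2). The log2 difference was -0.77 (SE 0.22), with a limma adjusted p of 0.207 without the block and 0.000586 with it (SE 0.088). The value was -0.44 without shNT replicate 2 and -1.11 without shNT replicate 1; the 2 controls differed by 0.66 on the log2 scale.

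The receptor Nr5a2 (LRH-1), which binds the same extended site and the regulatory region of Pou5f1, had a signal of 928 and 1449 in sh3, 1028 and 1232 in sh4, and 1462 and 2402 in shNT. All 4 knockdown arrays were below both controls, with the upper sh3 array close to the lower control. The knockdown mean of 1159 ± 231 was below the shNT mean of 1932 ± 665 (SD, n = 4 and 2; log2 difference -0.71, SE 0.23, adjusted p = 0.254 in limma without the block and 0.00484 with it), and the difference was -0.35 without shNT replicate 2 and -1.06 without shNT replicate 1.

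Nr0b1 (Dax1), a receptor without the usual DNA-binding domain that acts as a repressor of other nuclear receptors and binds Oct4 protein, had a signal of 2314 and 3249 in sh3, 2120 and 4058 in sh4, and 3226 and 6123 in shNT. The groups overlapped: the replicate 1 arrays of both hairpins were below both controls, while the replicate 2 arrays lay between the controls. The knockdown mean was 62.8% of that in shNT (log2 difference -0.65, SE 0.30, adjusted p = 0.431 in limma without the block and 0.00419 with it, SE 0.102). The difference was -0.18 without shNT replicate 2, -1.11 without shNT replicate 1 and -0.41 without sh4 replicate 1.

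Tfcp2l1, a CP2-family factor, had a signal of 1144 and 1970 in sh3, 1131 and 2141 in sh4, and 1839 and 3896 in shNT. Here too the replicate 1 arrays of both hairpins were below both controls and the replicate 2 arrays between them. The knockdown mean was 55.7% of the shNT mean (log2 difference -0.80, SE 0.34, adjusted p = 0.390 in limma without the block and 0.000816 with it, SE 0.097), and the difference was -0.26 without shNT replicate 2, -1.34 without shNT replicate 1 and -0.23 with its 3 probe sets averaged, of which 2 were below the filter. The standard error was thus over 3 times as large without the block as with it.

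Tbx3, a T-box repressor, gave the smallest difference of the 9. Its signal was 1102 and 1756 in sh3, 906 and 1372 in sh4, and 1056 and 1882 in shNT, and 1 of the 4 knockdown arrays (sh4 replicate 1) was below both controls. The log2 difference was -0.18 (SE 0.27, limma adjusted p = 0.855, and 0.368 with the block), with a 95% interval of -0.79 to 0.43. It ran from -0.59 without shNT replicate 1 to 0.24 without shNT replicate 2, so its direction depended on the control array left out. Between arrays of the same number it was -0.08 in replicate 1 and -0.28 in replicate 2. Prdm14, a PR-domain factor that represses FGF receptor signalling and the methyltransferase gene Dnmt3b in these cells, had a signal of 843 and 728 in sh3, 853 and 971 in sh4, and 967 and 1123 in shNT. Of the 4 knockdown arrays, 3 were below both controls and sh4 replicate 2 was just above the lower one. The log2 difference was -0.30 (SE 0.14, 95% interval -0.61 to 0.01, limma adjusted p = 0.421, and 0.193 with the block), and it was -0.19 without shNT replicate 2.

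The 3 markers included the largest differences. Tcl1, a coactivator of the kinase Akt, had a signal of 766 and 1155 in sh3, 511 and 1160 in sh4, and 1593 and 2503 in shNT. All 4 knockdown arrays were below both controls, at 43.9% of the shNT mean. The log2 difference was -1.21 (SE 0.32, limma adjusted p = 0.164, and 0.000383 with the block), and -0.89 without shNT replicate 2.

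Jam2, an immunoglobulin-family adhesion molecule of cell junctions, had a signal of 1403 and 1576 in sh3, 948 and 1758 in sh4, and 2269 and 3243 in shNT. All 4 knockdown arrays were below both controls, and the knockdown mean of 1421 ± 347 was 51.6% of the shNT mean of 2756 ± 688 (SD, n = 4 and 2). The log2 difference was -0.96 (SE 0.23, limma adjusted p = 0.142, and 0.00144 with the block). It was the only 1 of the 9 genes that passed without the block in any alternative that left out an array, at -1.18 with an adjusted p of 0.0405 without sh4 replicate 2.

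Fbxo15 (GRCm38.p6 chr18:84934552-84981476), an F-box protein gene used as a reporter of the pluripotent state, was read at a signal of 7520 and 9030 in sh3, 7095 and 10283 in sh4, and 11045 and 11736 in shNT. The 4 knockdown arrays were below both controls, at 74.5% of the shNT mean (log2 difference -0.44, SE 0.15, limma adjusted p = 0.281, and 0.0150 with the block). In the fit over all probe sets, which applies no filter, the adjusted p with the block was 0.0666 and the call was lost.

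**Figure D2:**
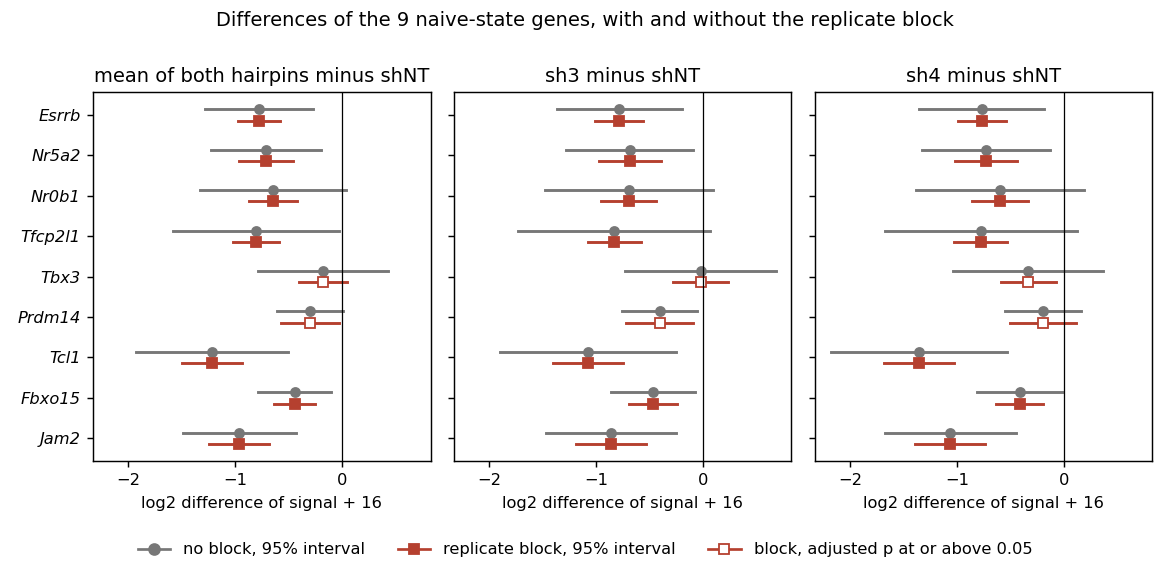
Log2 difference of signal + 16 (x axis) of each of the 9 genes for the mean of both hairpins, sh3 and sh4, each minus shNT; grey circles are the fit without the block, red squares the fit with it, lines are 95% intervals, and open squares did not pass with the block. Point estimates are the same in both fits and the intervals are shorter with the block for each of the 9 genes.

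Not every probe set of a gene gave the same value. Of the 24 probe sets, 18 had a mean signal at or above the 40.12 used as the filter, and 17 of these 18 were lower in the knockdown mean, with 0 called in limma's fit over all 45037 probe sets (0.00444% called lower) and 11 called lower with the block (0.389% called lower). All 5 probe sets of Jam2 were among the 11, with log2 differences of -0.96, -1.01, -1.05, -1.15 and -1.22. The 2 brightest of the 4 Nr5a2 probe sets were too, at -0.71 and -0.84, and the third that passed the filter was at -0.74.

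Esrrb was the exception. Its probe set 1441921_x_at read 1230 and 994 in sh3, 1095 and 1101 in sh4, and 1131 and 855 in shNT, a log2 difference of 0.16 (SE 0.15, limma adjusted p = 0.823 over all probe sets), against -0.77 for the brighter 1436926_at and -0.35 with the 3 Esrrb probe sets averaged. Its dim probe set 1422986_at was at -0.43. The suffix of the first marks a probe set whose probes may hybridize to other transcripts, and which of these transcripts each probe set reads was not tested. For Tbx3 the other probe set above the filter, 1437479_x_at, was at -0.43 (adjusted p = 0.793, and 0.171 with the block). The 6 probe sets below the filter, of Nr5a2, Tfcp2l1 and Tbx3, read 0.467 to 54.8 over the arrays, 2 lower and 4 higher in the knockdown mean, and carried little information.

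**Figure D3:**
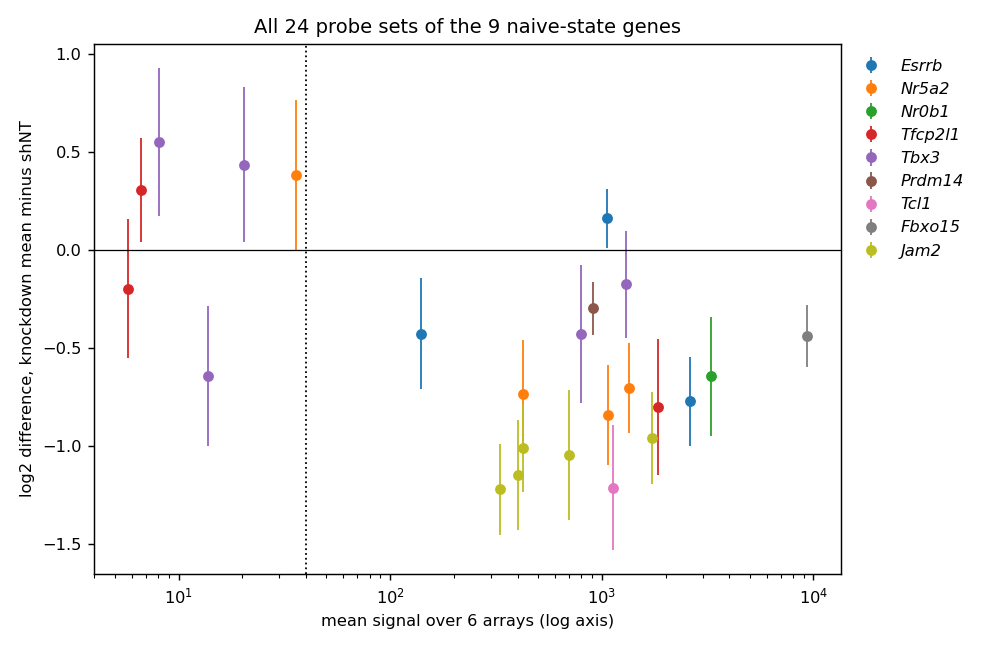
Log2 difference, knockdown mean minus shNT, with its SE (y axis) against mean signal over the 6 arrays (log axis) for all 24 probe sets; the dotted line is the filter at a signal of 40.12. Above it, 17 of 18 probe sets lie below 0, and the exception is an Esrrb probe set at 0.16.

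Both hairpins gave similar values for most of the 9 genes, with shared controls behind both. The median log2 difference was -0.69 for sh3 and -0.73 for sh4, each minus shNT. Side by side, sh3 and sh4 were at -0.78 and -0.77 for Esrrb, -0.69 and -0.73 for Nr5a2, -0.69 and -0.60 for Nr0b1, and -0.83 and -0.78 for Tfcp2l1. They were at -1.07 and -1.35 for Tcl1, -0.47 and -0.41 for Fbxo15, and -0.86 and -1.06 for Jam2. They were furthest apart for Tbx3, at -0.02 and -0.33, and for Tcl1, while Prdm14 was at -0.40 and -0.19.

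No gene of the 9 passed in either hairpin without the block, where 0.00788% of genes were called lower in sh3 and 0.0788% in sh4, and 6 of the 9 in sh3 and 5 in sh4 had an unadjusted p under 0.05, as did 1235 and 1541 of the 12684 genes. With the block the 7 genes named above passed in each hairpin, where 1.4% of genes were called lower in sh3 and 2.22% in sh4. In the direct test of sh4 minus sh3, 0 of the 9 passed with or without the block (0% and, with the block, 0.244% of genes called lower), with adjusted p from 0.868 to 0.994 in limma without it. With the block 1 of the 9, Tbx3, had an unadjusted p under 0.05, as did 1636 of the 12684 genes. The lack of calls does not show that the hairpins act alike: without the block the 95% intervals of the sh4 minus sh3 difference reached -1.11 for Tcl1 and 0.95 for Tfcp2l1.

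The replicates of each group differed in the same direction for these genes. In replicate 2 relative to replicate 1, the log2 value was higher in 8 of the 9 genes in sh3, 9 of 9 in sh4 and 9 of 9 in shNT, with medians of 0.49, 0.59 and 0.66. Over all genes tested, 47.96%, 46.13% and 45.79% were higher in replicate 2 of sh3, sh4 and shNT, with medians of -0.01, -0.03 and -0.03. In shNT cells alone, Tfcp2l1 was higher by 1.08 and Nr0b1 by 0.92, larger in size than their differences between knockdown and control cells. The one gene lower in replicate 2 was Prdm14 in sh3, at -0.21.

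Genes of the formative and primed epiblast ran the other way. Of the 18 tested, 17 were lower in replicate 2 in each of the 3 groups, with medians of -0.53 in sh3, -0.59 in sh4 and -0.61 in shNT. Replicate 2 therefore read higher for most of the 9 genes and lower for formative genes in knockdown and control cells alike. Of 20 other naive network genes, 13 in sh3, 11 in sh4 and 19 in shNT were higher in replicate 2. What same-numbered arrays share was not tested. Within replicate 1 the median knockdown minus shNT difference of the 9 genes was -0.60 and within replicate 2 it was -0.84, with all 9 below 0 in each. Esrrb was at -0.70 and -0.85, Nr0b1 at -0.54 and -0.75, Tfcp2l1 at -0.69 and -0.92, Nr5a2 at -0.57 and -0.84, Jam2 at -0.97 and -0.96 and Tcl1 at -1.33 and -1.10, while Fbxo15 was at -0.60 and -0.28, Prdm14 at -0.19 and -0.41 and Tbx3 at -0.08 and -0.28.

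**Figure D4:**
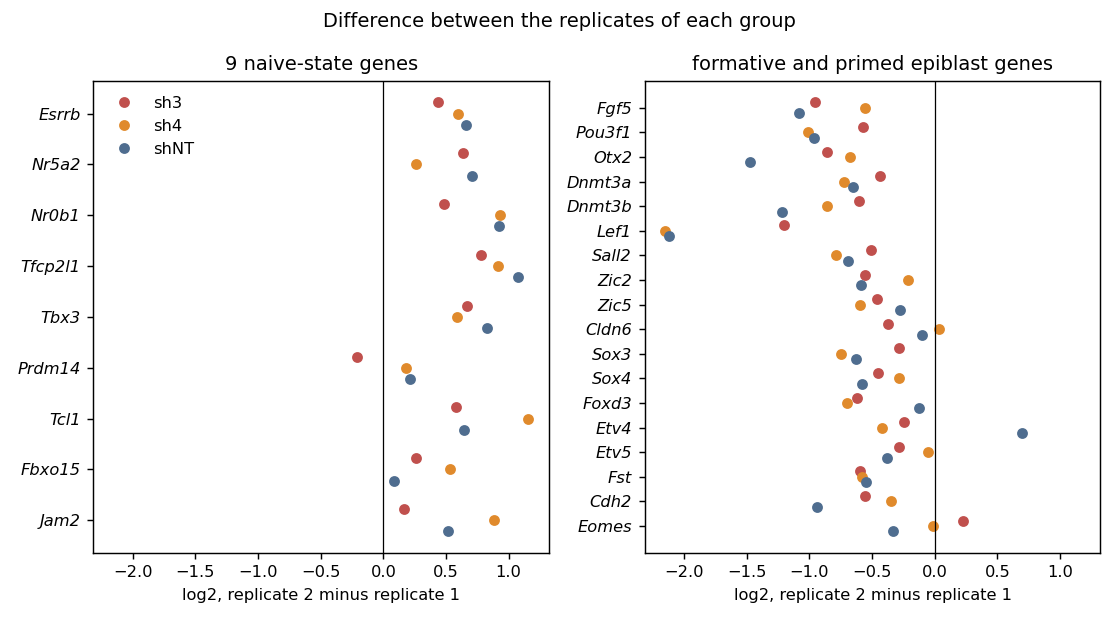
Log2 value of replicate 2 minus replicate 1 (x axis) within sh3, sh4 and shNT for the 9 naive-state genes (left) and the tested formative and primed epiblast genes (right). The left points lie above 0 except Prdm14 in sh3, and 17 of 18 right-hand genes lie below 0 in each group.

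The other genes of the naive network were lower on average, by less. Of 20 tested among 21 listed, 18 had a negative log2 difference in the knockdown mean, with a median of -0.31. Dppa3, a maternal-effect factor that guards DNA methylation, was the only one that fell without the block, at 1209 and 1477 in sh3, 1311 and 1492 in sh4, and 2353 and 2946 in shNT (log2 difference -0.94, SE 0.14, limma adjusted p = 0.0292). That call was lost when any 1 array other than shNT replicate 1 was left out, with an adjusted p of up to 0.142 (without shNT replicate 2). With the block 7 fell and 1 rose. Klf2 (-0.68, adjusted p = 0.198 without the block and 0.00116 with it) and Klf4 (-0.55, 0.128 and 0.00547), Krüppel-like factors of the same network, were among the 7, as were Nanog (-0.40, 0.425 and 0.0151) and Sox2 (-0.33, 0.191 and 0.0131). Nanog was at -0.09 without shNT replicate 2 and -0.70 without shNT replicate 1.

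Gbx2, a LIF-responsive homeobox gene, was the 1 that rose with the block, at 962 and 733 in sh3, 1836 and 916 in sh4, and 415 and 518 in shNT (log2 difference 1.14, SE 0.26, limma adjusted p = 0.112, and 0.00766 with the block). Pou5f1, which encodes Oct4, was at -0.04 (SE 0.12, adjusted p = 0.933, and 0.870 with the block), with overlapping groups of 9964 and 9281 in sh3, 10932 and 9797 in sh4, and 9069 and 11587 in shNT.

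Upstream of the 9 genes, the LIF and STAT3 pathway had 0 of 11 genes called without the block and 2 lower with it, with a median of -0.16. The 2 were the kinase genes Pim1 (-0.33, limma adjusted p = 0.0462 with the block) and Pim3 (-0.35, 0.0256), and Pim3 was at -0.09 with its probe sets averaged. Stat3 itself was at -0.02 (adjusted p = 0.966) and its feedback target Socs3 at -0.16 (0.906), while the receptor gene Lifr was at -0.34 (0.220, and 0.0535 with the block). On the WNT and GSK3 route, 0 of 8 tested genes among 9 listed passed without the block and 1 was higher with it. That gene was Tcf7l1, the repressor of Esrrb, at 2669 and 3106 in sh3, 2298 and 2403 in sh4, and 2045 and 1524 in shNT (log2 difference 0.55, SE 0.14, adjusted p = 0.148, and 0.0231 with the block), and 0.34 without shNT replicate 2. All 4 knockdown arrays exceeded both controls for Tcf7l1, as they did for 1421 of the 12684 genes tested. Ctnnb1, which encodes beta-catenin, was at -0.20 (limma adjusted p = 0.498) and Gsk3a at 0.20 (0.614).

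Of the cofactors, 8 of 10 were tested, 0 passed without the block and 1 fell with it, Cbfa2t2, a corepressor that stabilizes Prdm14 on chromatin (-0.39, SE 0.10, limma adjusted p = 0.162, and 0.0281 with the block). Its difference was -0.02 with its probe sets averaged. The coactivators Ncoa1 and Ncoa2 were at -0.39 (adjusted p = 0.314) and -0.21 (0.561). Among 14 tested paralogs of the 9 genes, of 24 listed, Prdm1, a paralog of Prdm14 and a germ cell regulator, fell without the block, at 349 and 448 in sh3, 282 and 358 in sh4, and 814 and 996 in shNT (-1.31, SE 0.18, adjusted p = 0.0225, and 0.130 without shNT replicate 2). Ubp1, a paralog of Tfcp2l1, rose with the block (0.30, adjusted p = 0.0425, and 0.10 with its probe sets averaged), and Fbxo5 was at -0.23 (0.448).

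Formative and primed epiblast genes were mostly higher in the knockdown cells: 15 of 18 tested genes of 20 listed had a positive log2 difference, with a median of 0.57. None passed in limma without the block, where 0.56% of all genes were called higher, and 11 rose with it, where 3.33% were. Fgf5, a growth factor gene of the postimplantation epiblast, read 189 and 89.9 in sh3, 174 and 113 in sh4, and 36.1 and 8.63 in shNT (log2 difference 2.08, SE 0.40, adjusted p = 0.0706, and 0.00142 with the block). Its controls were under the filter, so Fgf5 was tested only because of its signal in knockdown cells. It is counted among the 15 and the 11, which therefore depend in part on the filter. The size of its difference depended on the pseudocount, and was 1.24 with a pseudocount of 64. Sall2, a spalt-family gene, was at 1.29 (0.108, and 0.000477 with the block), Cdh2, which encodes N-cadherin, at 1.17 (0.109, and 0.000457), and Otx2 at 0.53 (0.646, and 0.0439). Without shNT replicate 2, Cdh2 was at 0.70 and Otx2 at -0.20.

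**Figure D5:**
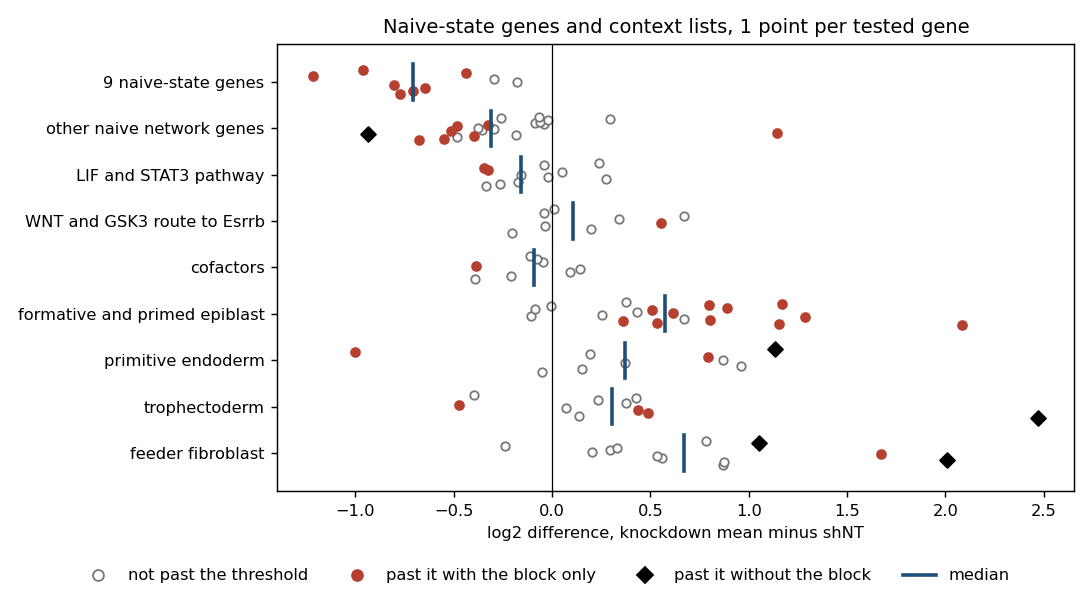
Log2 difference, knockdown mean minus shNT (x axis), of each tested gene of the 9 naive-state genes and of 8 lists of genes of the same network or of other cell types; open circles did not pass, red circles passed with the block only, black diamonds passed without it, and vertical bars are medians. The 9 genes lie at a median of -0.71 and formative and primed genes at 0.57.

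Markers of other cell types moved in the same comparison, and their part in the lower values of the 9 genes was not tested. Of 17 feeder fibroblast markers, 12 were tested and 11 of these had a positive difference (median 0.67). Over all genes tested, 48.33% had a negative difference. The 11 include Col3a1, Dcn and Col1a1, which were tested only because of their signal in knockdown cells, so the count depends in part on the filter. For Col1a1 the shNT arrays read 5.88 and 73.2, with a mean of 39.5, below the filter. The summed signal of all 17 was 18918 to 19128 in sh3, 22065 to 22136 in sh4 and 16798 to 16936 in shNT. Fn1 and Vim made up most of that sum and moved in opposite directions. Fn1 read 8092 and 9192 in sh3, 7894 and 8971 in sh4, and 9078 and 11138 in shNT (log2 difference -0.24, limma adjusted p = 0.464). Vim rose without the block (1.05, limma adjusted p = 0.0361). Col3a1 (2.01, adjusted p = 0.0336) and Dcn (1.67, 0.0504, and 0.0180 with the block) passed the filter only through the knockdown arrays, so their calls describe a signal of 109 to 254 and of 41.4 to 113 in knockdown cells against 25.6 and 37.6 and against 10.9 and 11.7 in shNT cells. With a pseudocount of 64 their differences were 1.33 and 0.86. Of the 5 markers below the filter, Lum and Twist2 were above both controls on all 4 knockdown arrays, Col6a1 and S100a4 on 1 and Postn on 0. Over the 12684 genes tested, which all passed the filter, 1421 were above both controls on all 4 knockdown arrays. The share among genes below the filter was not computed, so these 5 markers have no like background here. The bacterial controls also read higher on the knockdown arrays.

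Of 12 trophectoderm markers, 10 were tested. Cdx2 was called higher without the block (limma adjusted p = 0.0361), and with the block 3 were called higher, Cdx2 among them, and 1 fell, Tfap2c (-0.47, adjusted p = 0.0244). Cdx2 read 90.6 and 209 in sh3, 104 and 120 in sh4, and 18.8 and 2.43 in shNT, so it passed the filter only through the knockdown arrays. The highest bacterial control probe set read 16.9 to 27.8 on the knockdown arrays and 5.62 to 8.90 on the shNT arrays, and the difference of Cdx2, 2.47 on the log2 scale, ran from 1.36 to 3.92 with other pseudocounts. Eomes was above both controls on all 4 knockdown arrays but did not pass (0.38, adjusted p = 0.544, and 0.348 with the block). Below the filter, Gata3 was above both controls on all 4 knockdown arrays and Elf5 on 2. The summed signal of all 12 was 7952 to 13902 in sh3, 6679 to 9077 in sh4 and 6007 to 9748 in shNT. Of 11 primitive endoderm markers, 9 were tested, and the summed signal of all 11 was 2157 to 2367 in sh3, 4075 to 5147 in sh4 and 1945 to 2068 in shNT. Col4a1 rose without the block (1.13, limma adjusted p = 0.0214), with the block 2 rose and Hnf4a fell (adjusted p = 0.0360, and a difference of -0.60 with its probe sets averaged), and Sox17 was at 0.96 (0.215, and 0.39 with its probe sets averaged). These means hid a difference between sh3 and sh4: Col4a1 was at 0.63 and 1.64 and Sox17 at 0.23 and 1.69. Gata6 was at -0.35 in sh3 and 0.65 in sh4, and Gata4 at 0.13 and -0.24. Below the filter, Afp was above both controls on all 4 knockdown arrays and Foxa2 on 2. Afp read 7.31 to 32.2 on the knockdown arrays and 2.68 and 6.58 on the shNT arrays, close to the highest bacterial control of each. Of 9 markers of the 2-cell-like state only Eif1a (-0.06) and Zfp352 (-0.37) were tested, and neither passed. The calls made without the block for Col3a1, Vim, Cdx2 and Col4a1 were each lost without sh3 replicate 2, without sh4 replicate 1 and without shNT replicate 2, where the adjusted p was 0.0974, 0.0995, 0.151 and 0.0914.

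Genes with the most similar pattern over the 6 arrays were named for Tcl1, Jam2 and Tfcp2l1, the 3 with the largest differences, by the root mean square difference of log2 values centred on the shNT mean, among 12170 genes. Nearest to Jam2 were Stag3, a meiotic cohesin gene, at 0.111, Rnf19b at 0.132 and Rhox6 at 0.151. Nearest to Tfcp2l1 were Apoe, an apolipoprotein gene, at 0.153, Mylpf at 0.163 and Fabp3 at 0.194, and the other genes of the 9 closest to it were Nr0b1 at 0.161 and Esrrb at 0.182. Nearest to Tcl1 were Tdrp at 0.217, Apobr at 0.257 and Hhip at 0.272, with Jam2 at 0.257. Tbx3 was the furthest of the 9 from Tcl1 at 0.865 and from Jam2 at 0.670, and Prdm14 the furthest from Tfcp2l1 at 0.601.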

How the data were processed

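Total RNA (6 ug per array) from 6 samples was hybridized to Affymetrix GeneChip mouse genome arrays, per the labels' protocols. The authors deposited linear signal intensity; the submitters' processing notes name MAS5, with no version. Each array had a mean of 500.003 over its middle 96% of values, which shows scaling per array, and nothing was rescaled or background-corrected here. Of 45101 probe sets, 64 controls were left out. Platform annotation gave 34945 probe sets 1 symbol, 932 several and 9160 none, and names were given to the first group alone; all 24 probe sets of the 9 genes matched a current gene by Entrez ID. RefSeq promoter windows and loci are those of GRCm38.p6.

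Signals were taken as log2(signal + 16), which understates the change of dim genes. The brightest probe set per gene was kept and genes at or above the 40th percentile of mean log2 signal (5.81, a signal of 40.12) were tested, 12684 in all. The model had 3 group means and 6 arrays and was fitted with limma 3.58.1 (R 4.3.3), using eBayes with a trend on intensity (residual df 3, prior df 5.96). Tests were 2-sided, and p-values were adjusted by Benjamini-Hochberg across the 12684 genes, with a threshold of 0.05. A second fit over all 45037 probe sets had no filter. Groups came from the transfection label and replicate numbers from the titles. After group means were removed, arrays with the same number correlated over the genes tested at 0.300 (sh3 and sh4), 0.302 (sh3 and shNT) and 0.223 (sh4 and shNT), so the numbers were taken to pair the samples, and results of a fit blocked on that number (residual df 2, prior df 9.34) are given where they change a call. The labels call replicates biological duplicates without saying whether infections were separate, so p-values measure the spread between these samples. The limma scripts were checked on simulated arrays with known changes and independent noise. Same-numbered simulated arrays shared nothing, so that check does not bear on whether the replicate block is apt for these arrays. Errors of signals are SDs and of log2 values standard errors; the number of arrays limits the precision.

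All 9 genes were named, with up to 3 genes per context list by smallest p in the knockdown mean and 10 fixed genes (Klf4, Klf2, Nanog, Pou5f1, Sox2, Stat3, Socs3, Tcf7l1, Otx2 and Fgf5), and the 3 nearest patterns of the 3 most changed genes, passing over RIKEN and Gm symbols. The members and lists were chosen with earlier results of these data known. Genes named outside this rule (the markers below the filter, Col1a1, Fn1, Gata4 and Gata6) were named after their values were seen. Alternatives tried were the pseudocount, filter, scaling, trend, probe set rule, pooled hairpins, each array left out and the block.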

Additional observations from a re-analysis of the deposited data

How the results depend on the processing

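The count of the 9 genes past the threshold was 0 in the knockdown mean, sh3, sh4 and sh4 minus sh3, and stayed 0 with another pseudocount, filter, scaling, probe set rule, pooled hairpins or no intensity trend. With the replicate block it was 7 in the knockdown mean, 7 in sh3 and 7 in sh4, and 11 probe sets passed in place of 0. Arrays were left out only in the fit without the block, so the calls with the block were not tried that way. Leaving out 1 array gave 0 to 1 in the knockdown mean (1, Jam2, without sh4 replicate 2) and 0 to 0 in the other 3. The median log2 difference of -0.71 ran from -1.11 (without shNT replicate 1) to -0.35 (without shNT replicate 2) with 1 array left out, and from -0.84 to -0.44 otherwise, the least when probe sets of a gene were averaged, which put Tfcp2l1 at -0.23 and Esrrb at -0.35, against an SD between replicates of 0.453. Within replicate number 1 it was -0.60 and within number 2 -0.84, values chosen after seeing the data. Of 153 alternative values for single genes of the 9, 144 kept direction and side of the threshold, 8 passed it anew and 1 reversed: Tbx3, at 0.24 without shNT replicate 2 and -0.59 without shNT replicate 1. Without shNT replicate 2, Tfcp2l1 was at -0.26, Nr0b1 at -0.18, Nr5a2 at -0.35, Esrrb at -0.44, Prdm14 at -0.19 and Tcl1 at -0.89. Such values set shNT replicate 1 alone against knockdown arrays of both replicate numbers, without the pairing. Of 610 values of context genes, 539 kept both, 20 passed anew, 40 no longer passed and 11 reversed. The reversals were Stat3 at 0.062 with probe sets averaged and, with 1 array left out, values of Pou5f1 (range -0.22 to 0.14), Stat3 (-0.11 to 0.065), Socs3 (-0.79 to 0.47), Otx2 (-0.20 to 1.27) and Eif1a (-0.33 to 0.0045); the cause was not tested. Over all genes, 92 passed in the knockdown mean, against 710 with the block, 36 with no filter, 34 with the mean of probe sets, 50 without probe sets that may cross-hybridize, 0 without the trend and 4 to 48 with 1 array left out. The calls of Dppa3, Prdm1, Cdx2, Col3a1, Col4a1 and Vim made without the block were each lost without the intensity trend and when at least 1 array was left out.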
